A study of Mus musculus with 2 samples.

Results

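Chromatin accessibility was examined around 6 genes that mark goblet cells, Muc2, Tff3, Spdef, Agr2, Fcgbp and Zg16, among the 22380 protein-coding genes annotated on the mouse assembly mm9. The genes were given by name, and all 6 were found in the annotation. Peaks within 1 kb of any annotated start site of a gene were called promoter peaks, and the other peaks over the gene and 50 kb to each side were called distal peaks. Together the 6 genes had 9 promoter and 67 distal peaks in control enteroids, and 7 promoter and 58 distal peaks in Taf4-inactivated enteroids.

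ATAC-seq, in which a transposase inserts adapters into open DNA, had been performed on enteroids, which are epithelial cultures grown here from ileal crypts of mice 4 months old on a C57Bl6/129sv background. Control enteroids were Taf4 lox/lox, and Taf4-inactivated enteroids were Taf4 lox/lox::VilCreERT2, in which the villin promoter drives an inducible Cre recombinase in intestinal epithelium. Both received 1 µM 4-hydroxytamoxifen (4-OHT) for 3 days, so floxed Taf4 alleles and the drug were common to both, and the Cre transgene was present in one alone. Taf4 is a subunit of TFIID, the general transcription factor that recognises core promoters, and the comparison asks how open chromatin differed early after its loss. Each genotype had 1 library without replicates, so no test between genotypes could be made and every difference describes these 2 libraries. The cultures hold several epithelial cell types, and fewer goblet cells and less open chromatin per goblet cell cannot be told apart.

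Goblet cells are secretory cells that fill large granules with mucin and release them to build the mucus that keeps bacteria away from the epithelium. Spdef is an ETS transcription factor that drives their maturation. Muc2 is the gel-forming mucin of the intestine, Agr2 is a disulfide isomerase of the endoplasmic reticulum needed to fold it, Fcgbp is a large mucus protein bound to it, Zg16 is a lectin of the mucus that binds bacterial cell walls, and Tff3 is a small trefoil peptide secreted with it.

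The DNA just before the first start site of 5 of the genes is shown first, since it is where TFIID and its partners assemble. Each line holds the 150 bases upstream, read from the mm9 reference in the direction of transcription and ending at the base before the start site. All 5 stretches lie outside annotated exons. Capitals mark matches, on either strand, to 7 short patterns. The TATA box was searched as TATAAA and sites of GATA factors as AGATAA. Sites of the AP-1 family were searched as TGANTCA, and those of forkhead factors as TGTTTAC. The E box of the basic helix-loop-helix factors was searched as CAGCTG. The pattern taken for the nuclear receptor HNF4 was AAAGTCC, and the one for the intestinal CDX factors was TTTATNG.
Muc2 (chr7:148876118-148876267, plus strand): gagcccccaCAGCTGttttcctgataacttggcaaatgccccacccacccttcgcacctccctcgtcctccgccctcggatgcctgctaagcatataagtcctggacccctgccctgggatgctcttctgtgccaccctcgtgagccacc
Spdef (chr17:27865897-27866046, minus strand): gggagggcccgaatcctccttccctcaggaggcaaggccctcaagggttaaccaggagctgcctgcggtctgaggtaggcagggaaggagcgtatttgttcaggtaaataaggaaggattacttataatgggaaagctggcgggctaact
Agr2 (chr12:36719344-36719493, plus strand): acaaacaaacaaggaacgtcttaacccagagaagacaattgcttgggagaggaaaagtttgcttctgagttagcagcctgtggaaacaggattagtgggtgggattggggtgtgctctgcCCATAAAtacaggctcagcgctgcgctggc
Fcgbp (chr7:28856105-28856254, plus strand): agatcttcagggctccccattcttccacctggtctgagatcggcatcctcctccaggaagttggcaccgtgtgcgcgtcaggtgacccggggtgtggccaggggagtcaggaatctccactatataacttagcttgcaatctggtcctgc
Zg16 (chr7:134195492-134195641, minus strand): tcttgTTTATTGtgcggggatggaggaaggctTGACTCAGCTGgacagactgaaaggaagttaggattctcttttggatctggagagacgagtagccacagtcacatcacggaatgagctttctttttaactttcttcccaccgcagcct

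None of the 5 stretches held TATAAA, which 7.88% of the 22377 stretches of the same kind upstream of protein-coding genes held. Only this exact string was searched, so near forms, such as tatataa in the Fcgbp stretch and CATAAA in the Agr2 stretch, were not counted as TATA boxes. Counting the base before the start as −1, Muc2 held an E box pattern at −141, as did 7.51% of all stretches. Agr2 held a CDX pattern at −30, read on the opposite strand, and 5.63% of all stretches held one. Zg16 held a CDX pattern at −145, an AP-1 pattern at −118 and an E box pattern at −113, the last of which shares bases with the AP-1 pattern. AP-1 patterns were in 3.62% of all stretches. Spdef and Fcgbp held no match. A match is a description of these letters and not of a bound site.

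These 5 genes have start regions poor in CpG, the dinucleotide that is dense at the promoters of broadly expressed genes. From 250 bases before to 50 bases after the first start, each of them had 7 CpG, against a median of 11 over 22375 genes. With genes ordered by CpG and cut into 5 groups, all 5 fell in the second lowest. In that group, 48.2% of genes had a promoter peak in control and 41.8% in Taf4-inactivated enteroids, and 30.8% of those with a peak had it in one list alone. In the lowest group these values were 18.3%, 15.7% and 42.5%, and in the highest 98.0%, 97.4% and 1.78%.

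The control list held 90445 peaks and the Taf4-inactivated list 71282, and the lowest −log10 q of a listed peak was 1.01 and 1.00. A library's depth was not given directly. The background under each peak that gives its fold and p had a low end of 12.1 reads in control and 7.35 in Taf4-inactivated enteroids, a ratio of 1.65. Fold enrichment was higher in the second list, with a median of 2.45 against 2.03, so peaks were compared by percentile, the place of a peak's fold within its own list with 100 as the highest. The targeted gene, annotated as Taf4a, had a promoter peak in both lists (percentile 74.7 in control, 58.7 in the other), which does not report whether its floxed exons were present. All 5 epithelial genes examined (Epcam, Cdh1, Cdx2, Vil1, Krt8) had promoter peaks in both lists. Of 6 immune, stromal and endothelial genes, Ptprc, Cd3e, Col3a1 and Cdh5 had none in either list, Col1a1 had weak ones in both, at percentiles 10.7 and 18.1, and Pecam1 had one in control alone, at percentile 21.8.

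Promoter peaks of the goblet cell genes were mostly weak, and 4 in each list overlapped a peak of the other. In control enteroids 5 of the 6 genes had one, all but Tff3, beside 68.4% of all protein-coding genes. In Taf4-inactivated enteroids 4 of 6 had one, all but Agr2 and Zg16, beside 65.5%. Agr2 and Zg16 had one in the control list alone (5.7% of all genes) and Tff3 in the Taf4-inactivated list alone (2.9%). Muc2, Spdef and Fcgbp had one in both lists (62.7%). Only Spdef and Fcgbp had promoter peaks that overlapped between the lists (62.3%). Of 9 control promoter peaks 5 had no partner in the other list (55.6%, exact Clopper-Pearson 95% interval 21.2 to 86.3), against 18.4% of the promoter peaks of all protein-coding genes. Of 7 Taf4-inactivated promoter peaks 3 had none (42.9%, interval 9.90 to 81.6), against 10.3%. The Taf4-inactivated interval holds the value of all genes, and the control interval does not. The intervals cover counting error only and take each peak as independent. In control, Fcgbp gave 3 of the peaks and Muc2 and Spdef 2 each, so the peaks were not independent. The values of all genes were also not matched for CpG, so whether the control share is particular to these genes was not tested.

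**Figure D1:**
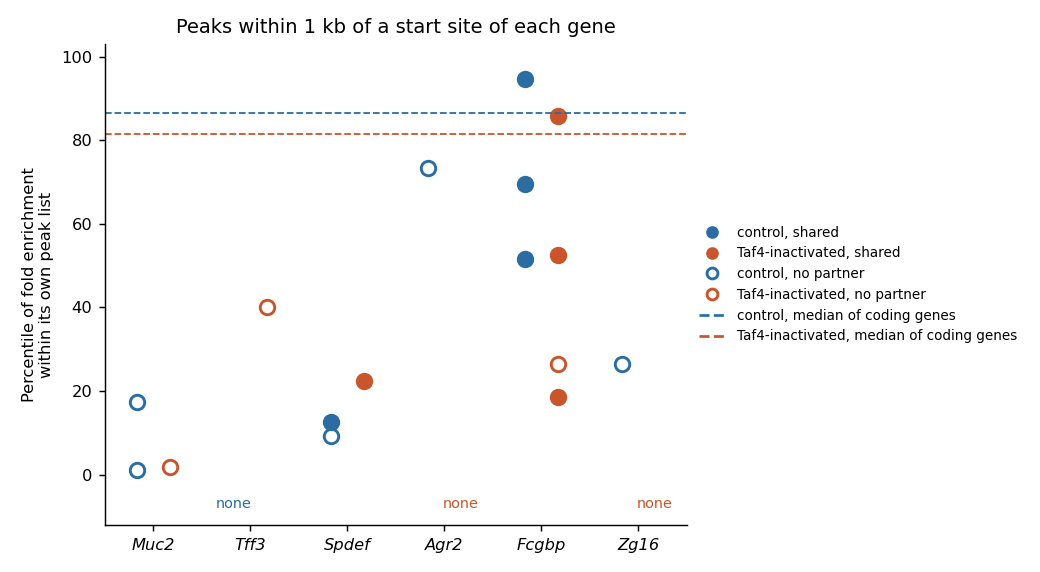
Percentile of fold enrichment within its own list (vertical axis) of every promoter peak of the 6 genes (horizontal axis), in control (blue) and Taf4-inactivated (orange) enteroids. Filled points overlap a peak of the other list, open points do not, "none" marks a gene without a promoter peak, and dashed lines are the medians over all protein-coding genes with a promoter peak. Only the main Fcgbp peaks lie above these medians of 86.5 and 81.5.

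In order of their strongest promoter peak, control enteroids ranked Fcgbp (percentile 94.5), Agr2 (73.4), Zg16 (26.4), Muc2 (17.3) and Spdef (12.7). Taf4-inactivated enteroids ranked Fcgbp (85.8), Tff3 (40.1), Spdef (22.4) and Muc2 (1.75). With 1 library each, no spread says which neighbours in these orders differ. Only Fcgbp exceeded the medians, 86.5 and 81.5, over all protein-coding genes with a promoter peak. The 3 genes with a promoter peak in both lists differed by less than 25 percentile points by fold (by −log10 p, Muc2 differed by −30.8), whereas 9.07% of 14022 genes were at least that much lower and 5.93% at least that much higher in Taf4-inactivated enteroids.

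Spdef, the regulator, lies on chromosome 17 from 27851297 to 27865896 on the minus strand and has 5 annotated start sites. At its first start sites the control list alone had a peak, from 27865510 to 27865768 in a non-coding exon, with a fold of 1.81, a −log10 q of 1.75 and percentile 9.23. The nearest Taf4-inactivated peak was 8443 bp away. A wide control peak of 3393 bp (27853600 to 27856992, fold 1.84, percentile 12.7) lay over an internal start of a non-coding transcript. It met a Taf4-inactivated promoter peak of 402 bp (27853785 to 27854186, fold 2.20, percentile 22.4). The difference, Taf4-inactivated minus control, was 9.71 points by fold and −6.22 points by −log10 p, so its direction depended on the ranking value. The same wide control peak met a stronger Taf4-inactivated peak over a coding exon (27856739 to 27857067, fold 2.50, percentile 54.1).

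Muc2, the mucin, lies on chromosome 7 from 148876268 to 148940595 on the plus strand and has 2 annotated start sites. Its control peak near the first start ran from 148876346 to 148876563, 78 bp inside the gene, with a fold of 1.68, a −log10 q of 1.46 and percentile 1.21. The Taf4-inactivated peak ran from 148875843 to 148876337 across the start, with a fold of 1.94, a −log10 q of 1.51 and percentile 1.75. The 2 peaks were 9 bp apart and both stood at the weak end of their lists. A second control peak, 836 bp past the second start (148885449 to 148886951, fold 1.87, percentile 17.3), overlapped a coding exon and had no partner. The difference of −15.6 percentile points between the strongest peaks, Taf4-inactivated minus control, thus set different places side by side, and within 500 bp of a start it was 0.54. In mm9 the Muc2 gene holds 40200 unknown bases in 3 runs, of which the longest, 40000 bases, starts 14249 bp past the first start, and no read can map there. The second control peak lies between the 2 shorter runs of 100 bases each.

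Tff3, the trefoil peptide, lies on chromosome 17 from 31262251 to 31266591 on the minus strand and has 1 start site. The control list had no peak within 1 kb of it. The Taf4-inactivated list had a narrow one across the start and a coding exon, from 31266446 to 31266654, with a fold of 2.34, a −log10 q of 3.23 and percentile 40.1. Just outside the promoter window, 1275 bp upstream, a control peak (31267866 to 31268537, fold 1.96, −log10 q 2.45) at percentile 35.7 overlapped a Taf4-inactivated peak (31268006 to 31268591, fold 2.72, −log10 q 5.60) at percentile 66.3. It was 30.6 points higher in Taf4-inactivated enteroids by fold and 9.62 points higher by −log10 p.

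Agr2, the disulfide isomerase, lies on chromosome 12 from 36719494 to 36730674 on the plus strand and has 1 start site. Control enteroids had a peak over it from 36719411 to 36720006, in a non-coding exon, with a fold of 2.21, a −log10 q of 2.44 and percentile 73.4. In Taf4-inactivated enteroids no peak lay within 1 kb of the start, and the nearest was 2402 bp from the control peak. That nearest peak, over a coding exon of Agr2 (36722408 to 36722725, 2914 bp past the start), had a fold of 3.26, a −log10 q of 5.69 and percentile 82.7, and control enteroids had none there.

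Fcgbp, the Muc2-bound mucus protein, lies on chromosome 7 from 28856255 to 28905881 on the plus strand and has 5 start sites. Its first start was open in both libraries over almost the same interval. The control peak ran from 28854791 to 28856427 with a fold of 2.85 and a −log10 q of 8.53, at percentile 94.5. The Taf4-inactivated peak ran from 28854777 to 28856431 with a fold of 3.42 and a −log10 q of 9.74, at percentile 85.8. The overlap was 1637 bp, or 98.9% of the longer peak, and this was the only first start site of the 6 genes at which the lists shared a peak. At internal start sites of non-coding transcripts, one shared peak stood at percentile 51.6 in control against 18.6 after Taf4 inactivation, and another at 69.5 and 52.6. A further internal peak was in the Taf4-inactivated list alone, at percentile 26.6. Of the 50-base words of the Fcgbp gene, 7.80% occur more than once in it, against 0.330% in the known bases of Muc2 and 0 in the other 4 genes, and their part in the uniquely mapped signal was not tested.

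Zg16, the lectin, lies on chromosome 7 from 134193670 to 134195491 on the minus strand and has 1 start site. Control enteroids had a peak over it and a coding exon from 134195107 to 134195907, with a fold of 1.92, a −log10 q of 1.29 and percentile 26.4, close to the lowest value listed. In Taf4-inactivated enteroids the nearest peak lay 1386 bp upstream of the start (134196877 to 134197362, fold 2.16, −log10 q 1.27, percentile 17.5), without a partner, 970 bp from the control peak.

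**Figure D2:**
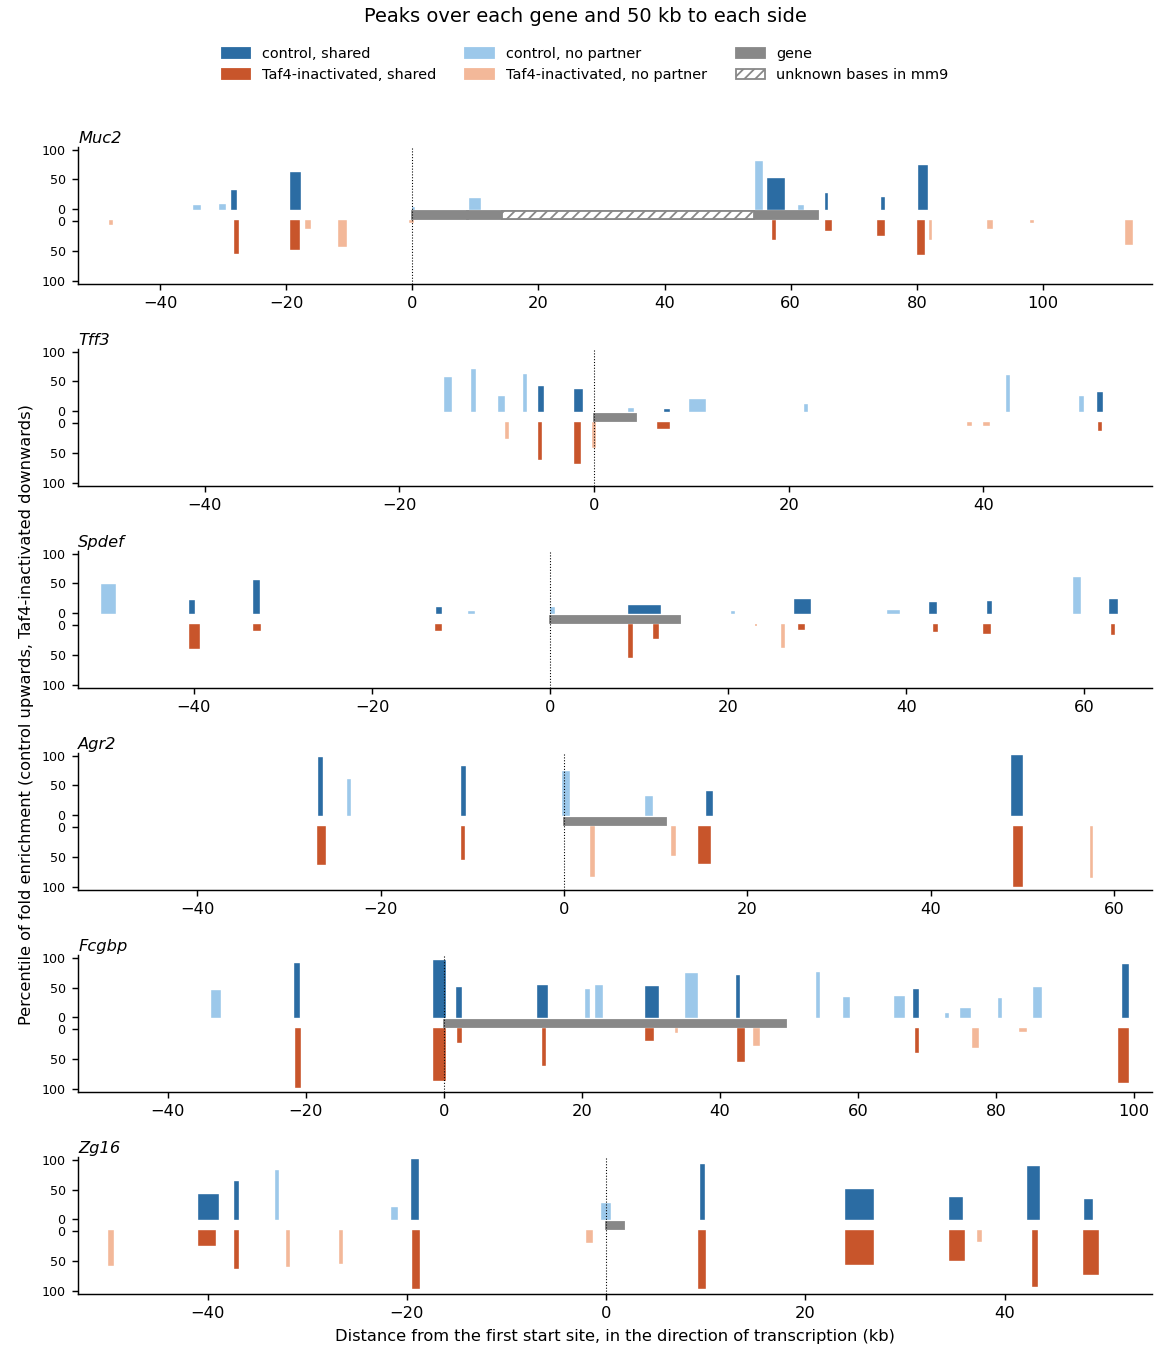
Position of every peak over each gene and 50 kb to each side, by distance from the first start site in the direction of transcription (horizontal axis, kb). Bars show percentile of fold within the list (vertical axis), upwards for control and downwards for Taf4-inactivated enteroids, drawn at peak width, dark when shared and pale when without a partner. Tall bars stand opposite each other at the Fcgbp start and far from the starts of Agr2 and Zg16, while the other start sites hold low or unmatched bars. In Muc2 the hatched stretches are unknown bases of mm9.

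Many of the distal peaks were in one list alone. Of 67 control distal peaks 33 had no partner (49.3%, interval 36.8 to 61.8), beside 59.7% of 59842 distal peaks of all protein-coding genes. Of 58 Taf4-inactivated distal peaks 23 had none (39.7%, interval 27.0 to 53.4), beside 47.2% of 45996. Both intervals hold the value of all genes. With the control list cut by fold to the length of the other, these shares were 42.9% and 51.7%, in the opposite order. Control enteroids had more distal peaks than Taf4-inactivated enteroids at Fcgbp (16 and 8), Tff3 (13 and 7) and Spdef (12 and 10), and fewer at Muc2 (10 and 13), Zg16 (10 and 13) and Agr2 (6 and 7). Medians over all protein-coding genes were 8 and 6.

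**Figure D3:**
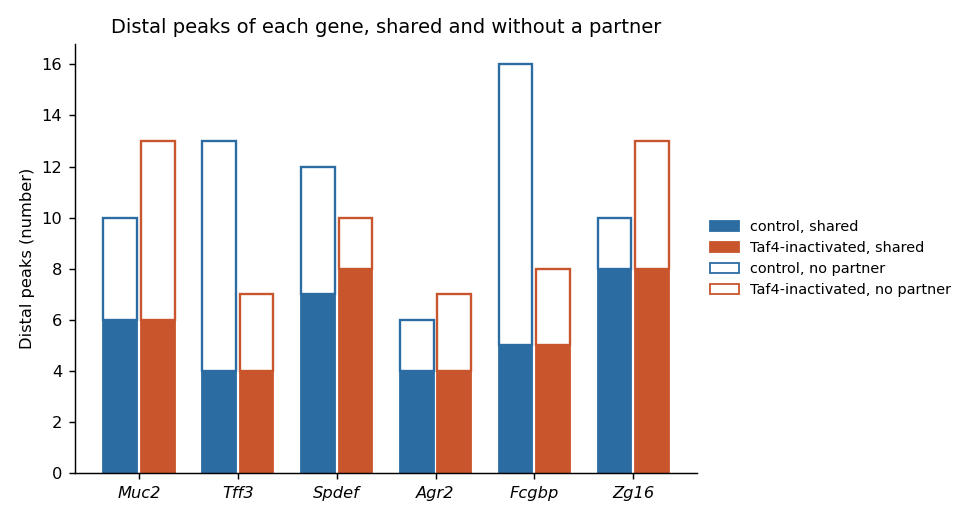
Number of distal peaks (vertical axis) of each gene in control (blue) and Taf4-inactivated (orange) enteroids, with peaks shared between the lists filled and peaks without a partner open. Shared peaks were equal in number in both lists for each gene but Spdef (7 and 8), while peaks without a partner were 11 against 3 at Fcgbp and 9 against 3 at Tff3.

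Which list had more peaks turned with the threshold. Among distal peaks with a −log10 q of 2 or more, 30 were from the control and 36 from the Taf4-inactivated list, and with 5 or more these numbers were 6 and 12. No peak in the top 10% of its list was without a partner: all 4 such control peaks and all 5 such Taf4-inactivated peaks were shared. Counts in this paragraph were not computed over all protein-coding genes, so whether they are particular to the goblet cell genes was not tested. The strongest peak without a partner stood at percentile 80.5 in control, 32937 bp upstream of Zg16, and at 83.9 in Taf4-inactivated enteroids, 57468 bp past the start of Agr2. Of the distal peaks, 11 in either list lay within 1 kb of a start site of another gene, and 8 of these were shared in either list.

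The strongest distal peaks of Agr2 and Fcgbp were promoters of neighbouring genes. At Agr2 they lay over the start of Tspan13, a tetraspanin gene, at percentile 99.4 in control (fold 3.68) and 99.7 in Taf4-inactivated enteroids (fold 5.54). At Fcgbp they lay over the start of Psmc4, a proteasome subunit gene, at percentiles 88.8 and 96.6, followed by the start of Fbl, the nucleolar methyltransferase fibrillarin, at 87.9 and 88.3. At Zg16 the strongest control peak was intergenic, 18859 bp upstream, with a fold of 3.52 at percentile 99.0 (4.14 and 94.8 in Taf4-inactivated enteroids). The strongest Taf4-inactivated peak there lay over the start of Kif22, a kinesin gene, at percentile 95.4 (90.6 in control).

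At Muc2, Tff3 and Spdef no distal peak reached the top 10% of either list. The strongest of Muc2 in control was in a coding exon near its 3′ end (148930707 to 148931736, fold 2.29, percentile 79.4), beginning just after the unknown bases and without a partner. In Taf4-inactivated enteroids it was a shared intergenic peak 80235 bp past the start (fold 2.52, percentile 55.3, against 72.4 in control). The strongest of Tff3 in control lay in an intron of Tff2, a sister trefoil gene, at percentile 68.8 and without a partner, and in Taf4-inactivated enteroids it was the shared peak upstream of the start described above. The strongest of Spdef in control lay in an intron of Pacsin1 at percentile 58.6, without a partner, and in Taf4-inactivated enteroids it was the exonic peak at percentile 54.1.

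Distal peaks that overlapped formed 34 best pairs, of which 16 stood at a higher and 18 at a lower percentile in Taf4-inactivated enteroids. The median difference was −1.26 points, against −2.34 over 23901 pairs of all protein-coding genes. By −log10 p these medians were −7.97 and −4.12, with 13 pairs higher and 21 lower. A percentile at least 25 points higher was seen in 2 of 34 pairs, beside 13% of all pairs, and one at least 25 points lower in 4 of 34, beside 18.6%. By −log10 p these counts were 3 and 8, beside 11.6% and 21.5% of all pairs. The higher ones were the peak upstream of Tff3 and an intronic peak of Mvp near Zg16 (percentiles 33.4 and 71.6). The lower ones lay upstream of Spdef in an intron of D17Wsu92e (54.9 and 7.42), at 2 intergenic peaks upstream of Agr2 and in an Fcgbp intron (49.7 and 22.2). Of these 6 pairs, the Tff3 and Fcgbp ones were within 25 points by −log10 p. The Agr2 peak 26370 bp upstream had a fold of 3.10 at percentile 96.9 in control and of 2.64 at 62.5 in Taf4-inactivated enteroids, and the one 10843 bp upstream stood at 80.3 and 53.8.

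**Figure D4:**
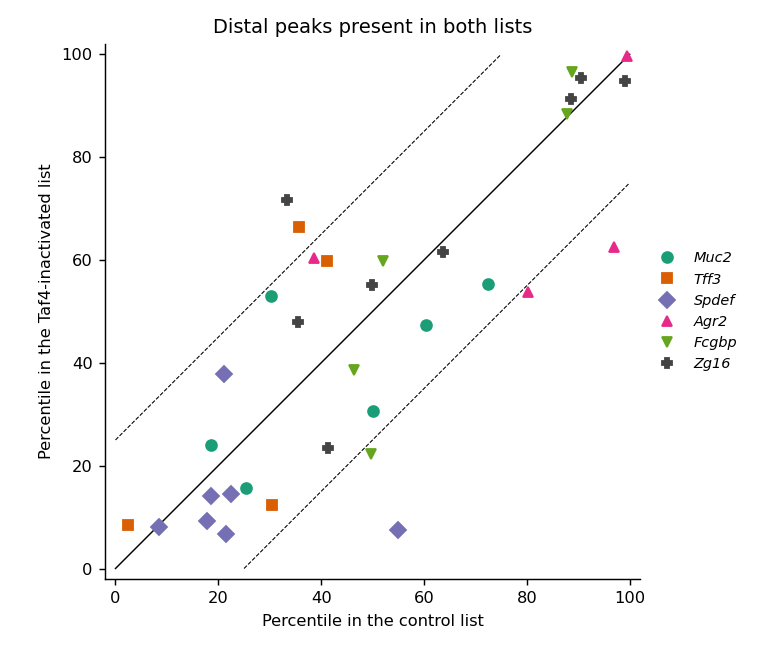
Percentile in the control list (horizontal axis) against percentile in the Taf4-inactivated list (vertical axis) for the 34 distal peak pairs, 1 point a pair, coloured by gene. The solid line marks equal percentiles and dashed lines mark 25 points to either side. Pairs at the top right, from Agr2, Fcgbp and Zg16, lie near the line, and the points beyond the dashed lines are 2 above and 4 below.

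The 200 bases at the centre of 3 shared distal regions are shown on the plus strand of mm9, for the peak nearest Tff3 that was higher in Taf4-inactivated enteroids, the Agr2 peak that was lower, and the Zg16 peak that was strong in both. Capitals mark the same 7 patterns on either strand.
Tff3 (chr17:31268171-31268370, plus strand): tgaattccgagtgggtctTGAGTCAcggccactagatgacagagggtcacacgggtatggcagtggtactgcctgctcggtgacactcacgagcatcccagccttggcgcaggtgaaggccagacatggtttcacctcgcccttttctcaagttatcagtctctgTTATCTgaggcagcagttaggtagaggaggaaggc
Agr2 (chr12:36692868-36693067, plus strand): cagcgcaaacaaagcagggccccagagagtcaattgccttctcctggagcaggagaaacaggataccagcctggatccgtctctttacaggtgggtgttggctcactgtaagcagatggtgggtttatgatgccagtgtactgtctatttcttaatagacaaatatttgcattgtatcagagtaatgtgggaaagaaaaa
Zg16 (chr7:134214529-134214728, plus strand): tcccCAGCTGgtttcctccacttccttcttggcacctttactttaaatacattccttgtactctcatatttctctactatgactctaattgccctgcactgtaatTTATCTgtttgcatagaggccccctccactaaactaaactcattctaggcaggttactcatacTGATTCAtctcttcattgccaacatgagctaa

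The Tff3 window held an AP-1 and a GATA pattern, the Agr2 window none of the 7, and the Zg16 window an E box, a GATA and an AP-1 pattern. Among 24101 windows of that length at the centres of shared distal control peaks of protein-coding genes, AP-1 was in 9.82%, GATA in 9.08% and the E box in 16.3%.

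Other genes of the goblet cell programme were taken from 4 lists. Over all protein-coding genes 62.7% had a promoter peak in both lists, and the median difference in percentile, Taf4-inactivated minus control, was −2.77 points. Of 10 transcription factors 9 were matched to the annotation, and all 9, Spdef included, had promoter peaks in both lists, with median percentiles of 67.96 and 57.03 and a median difference of −11.7 points. In Taf4-inactivated enteroids the Spdef peak lay only at the internal start of a non-coding transcript. Creb3l1, a transcription factor of the secretory pathway, stood 49.96 points higher after Taf4 inactivation (percentiles 7.26 and 57.2), while its relative Creb3l4 (67.96 and 28.9) and the forkhead factor Foxa2 (53.9 and 23.5) stood lower. Among all genes with a peak in both lists, 5.93% stood at least 25 points higher and 9.07% at least 25 points lower.

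Of 13 further mucins and mucus proteins, 6 had a promoter peak in control and 6 in Taf4-inactivated enteroids, and 5 had none in either. Over all protein-coding genes 68.4% had one in control and 65.5% in Taf4-inactivated enteroids. Muc6 (percentile 4.89) and Tff2 (56.4), both chiefly gastric, had one in control alone, beside 5.7% of all genes. The transmembrane mucin Muc1 (41.2) and the gel-forming Muc5ac (4.10) had one in Taf4-inactivated enteroids alone, beside 2.9% of all genes. The Muc6 and Tff2 peaks were also counted above, as distal peaks of Muc2 and Tff3. A weaker Taf4-inactivated peak near a Muc5ac start (percentile 1.36) was likewise counted as a distal peak of Muc2. The 4 genes with a peak in both lists had a median difference of −24.3 points. Muc4, a transmembrane mucin (percentiles 65.8 and 34.6), and Muc5b, a gel-forming one (33.6 and 0.798), stood at least 25 points lower after Taf4 inactivation. Of all genes with a peak in both lists, 9.07% did so. Of 13 genes for mucin folding and glycosylation 9 had a promoter peak in each list, and the 8 with one in both had a median difference of −8.42 points. Ern2, the stress sensor of goblet cells, had one in control alone, and Gcnt3, an enzyme that branches mucin glycans, had one in Taf4-inactivated enteroids alone at percentile 97.0. Of 11 genes for granule secretion 9 had one in control and 10 in Taf4-inactivated enteroids, where Rep15 was the addition, and the 9 with one in both had a median difference of −5.10 points. Sytl4 (86.0 and 55.3) and Rab27a (84.7 and 57.4), which dock secretory granules, and Bcas1 (62.0 and 28.0, from peaks that did not overlap) stood at least 25 points lower, a size reached by 9.07% of all genes with a peak in both lists, and none of the list stood that much higher.

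**Figure D5:**
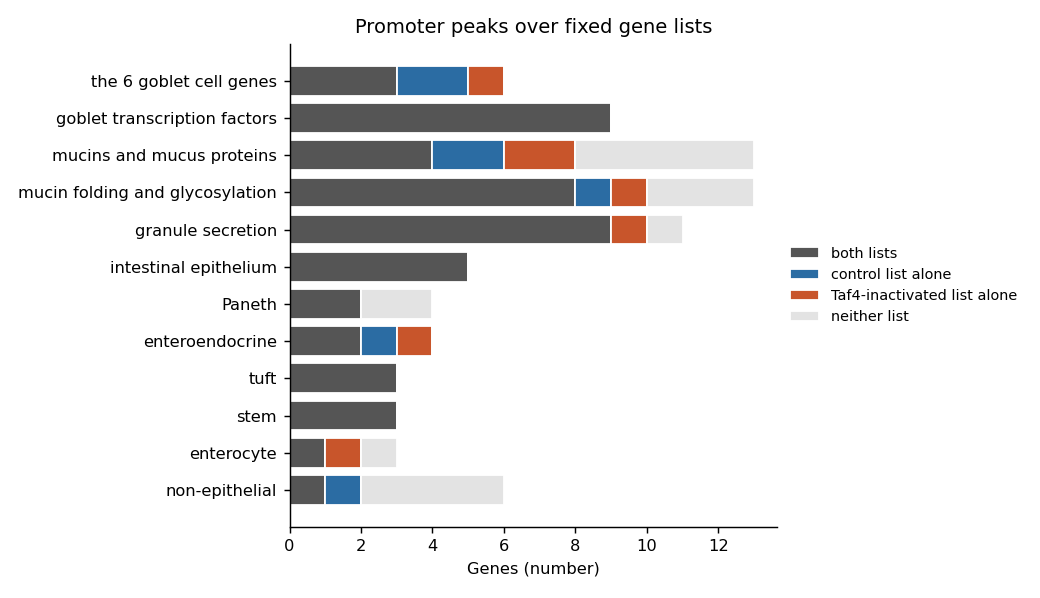
Number of genes (horizontal axis) of each list (vertical axis) with a promoter peak in both lists, in the control list alone, in the Taf4-inactivated list alone or in neither. Of the 6 goblet cell genes 3 had a peak in one list alone, and all 9 matched goblet transcription factors had one in both. For Spdef the Taf4-inactivated peak lay only at an internal start of a non-coding transcript.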

How the data were processed

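The data were ATAC-seq peak lists of 2 enteroid libraries, 1 of each genotype, as the labels give it. The authors mapped reads to mm9 with Bowtie 1.0.0 keeping unique matches, and called broad peaks per library with MACS2 2.1.1 (no model, reads shifted by 100 bp and extended to 200 bp). Treatment of duplicate and mitochondrial reads is not given in the sources used here. The deposited fold (a ratio to the library's background), −log10 p and −log10 q are averages over a peak, and the deposited score equals the −log10 q times 10 without its decimals.

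Positions were made 1-based and joined to the GENCODE annotation of NCBIM37 (mm9) in Python 3.11.15 (pandas 2.3.3, numpy 2.4.6, scipy 1.17.1, matplotlib 3.10.9 for figures). Peaks overlapping by at least 1 bp were partners, and a best pair was the largest mutual overlap. Overlap and assignment steps were tested on simulated data, as was solving a background from an exact fold and p. The averaging of fold and p over a peak, and the choice of the low end of the background, were not simulated. With 1 library per genotype no p-value was computed.

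The members and lists were chosen with earlier results of these data known. Named by rule were all members with their promoter peaks, the highest distal peak per gene and list, and list genes with a promoter peak in 1 list alone or a difference of at least 25 points. Other distal peaks and the printed sequences were chosen after their values were seen. One upstream stretch is not reported here. Alternatives changed q, list length, windows, transcripts, flanks, overlap and ranking.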

Additional observations from a re-analysis of the deposited data

How the results depend on the processing

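Of 60 recomputed counts and shares 37 stayed near the reported value and 23 moved, and the cause was not tested where a setting does not itself set it. Requiring a −log10 q of at least 2 in both lists left 3 genes with a promoter peak in control (Spdef, Agr2, Fcgbp) and 3 in Taf4-inactivated enteroids (Tff3, Spdef, Fcgbp). Distal peaks then numbered 30 and 36 (control first here and below). Requiring 5 left 1 and 1 gene (Fcgbp) and 6 and 12 distal peaks. Shares without a partner were then 16.7% and 58.3%, which turns their order. The order also turned at 2 (43.3% and 50%) and on cutting the control list by fold to 71282 peaks (42.9% and 51.7%). Sought in the whole other list, a choice made after seeing the data, the shares were 33.3% and 30.6% at 2, in the reported order, and 0% and 16.7% at 5. That shorter control list left 3 genes with a promoter peak (Agr2, Fcgbp, Zg16), against 4 in the Taf4-inactivated list. The order of the reported 5 and 4 genes was thus lost at a −log10 q of 2 and turned with the shorter control list. With promoters of 2 kb, 6 and 5 genes had one, since Tff3 gained one in control and Zg16 in Taf4-inactivated enteroids. Only Agr2 then had one in a single list. With protein-coding transcripts alone 5 and 3 genes had one, and Spdef had none in Taf4-inactivated enteroids. These counts were taken as near the reported ones, although the genes differed. Flanks of 25 kb gave 41 and 30 distal peaks, and 100 kb gave 125 and 104. Overlap of 50% of both peaks gave shares of 73.1% and 69.0%. A difference of at least 25 points, met by 0 genes, was met by 1 gene with promoters of 2 kb (Tff3, 30.6), by 1 with −log10 p (Muc2, −30.8) and by 2 when ranking among all genes (Tff3, 27.6, and Agr2, −37.4). Distal pairs at least 25 points lower numbered 4 by fold and 8 by −log10 p, also tried after seeing the data. Of 15 single-gene differences 2 changed sign, Muc2 within 500 bp (0.540) and Spdef by −log10 p (−6.22). No paired analysis was possible because each genotype had 1 library, and for the same reason none could be left out.

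Many peaks of these genes lie near the calling threshold, and read totals were not used here, so a peak in one list alone is not shown to be absent from the other library.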

Other observations

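Markers of the other epithelial lineages gave a mixed picture at their promoters. Among 4 Paneth cell genes Lyz1, the lysozyme gene, stood 36.1 points higher in Taf4-inactivated enteroids (percentiles 50.1 and 86.2) and Itln1, a lectin gene, stood lower (80.5 and 36.5), while Mmp7 and Ang4 had no promoter peak in either list. Among 4 enteroendocrine genes Neurod1 had a promoter peak in control alone (percentile 28.1) and Cck in Taf4-inactivated enteroids alone (percentile 12.6). The tuft cell genes Dclk1 (96.9 and 64.2) and Trpm5 (35.7 and 9.68) stood lower. All 3 stem cell genes, Lgr5, Olfm4 and Ascl2, had promoter peaks in both lists. Of 3 enterocyte genes Fabp1 had one in Taf4-inactivated enteroids alone, at percentile 59.6, and Sis had none. Over all protein-coding genes, 5.7% had a promoter peak in control alone and 2.9% in Taf4-inactivated enteroids alone. Of those with one in both lists, 9.07% stood at least 25 points lower and 5.93% at least 25 points higher in Taf4-inactivated enteroids.

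By the distance between the promoter percentiles of both lists, the gene most like Muc2 among 48 compared was Chga (0.997 points), that most like Spdef was Col1a1 (4.76) and that most like Fcgbp was Galnt4 (3.74). These distances rest on 2 libraries. The 2 percentiles of Muc2 come from peaks at different places, so its distance describes no single promoter. Those of Spdef come from an internal start of a non-coding transcript, so its distance does not describe its first start sites.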
